A study of Mus musculus with 6 samples.

Results

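The genes of excitation-contraction coupling and calcium handling were examined in gastrocnemius muscle, the large muscle of the calf, of mice carrying an activating Hras allele. The 10 members were Ryr1, Cacna1s, Cacnb1, Cacng1, Cacng7, Jph1, Jph2, Stac3, Casq1 and Atp2a1, chosen by name and found by gene symbol among the 23997 symbols listed for each library. RNAseq libraries had been made from 6 untreated mice aged 21 days, 1 library per mouse. The WT mice were littermates of HrasG12V mice, and the labels do not say which mice shared a litter. The HrasG12V group held mice 2276, 2278 and 2279, labelled Caggs-Cre+/HrasG12V/+, which were heterozygous for the p.G12V change at the endogenous Hras locus. The wild-type (WT) group held mice 2277, 2280 and 2281, labelled Caggs-Cre-/HrasflG12V/+ and Hras+/+, so the controls also carried the floxed allele but no Cre. The Cre was driven by a promoter active throughout the body, and the allele was therefore not limited to muscle fibers. Values are FPKM, in which reads are divided by transcript length and by library size, so that levels can be compared between genes per length. WT values are given in the order 2277, 2280 and 2281, and HrasG12V values in the order 2276, 2278 and 2279.

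In skeletal muscle, an action potential runs down the transverse tubules and is sensed by the L-type calcium channel, the dihydropyridine receptor. The receptor is mechanically coupled to the ryanodine receptor Ryr1 in the sarcoplasmic reticulum, which opens and lets calcium out to the myofilaments. Junctophilins hold the facing membranes together, calsequestrin stores calcium inside the reticulum, and the SERCA pumps return it there.

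Of the 10 members, 9 were above 0 FPKM in every library and were tested, and Atp2a1 was listed at 0 in all 6. Cacng7, Cacna1s and Jph1 were lower in HrasG12V than in WT muscle at an unadjusted p below 0.05 in limma, the threshold at which a gene is named called here, at 49.6%, 64.0% and 69.3% of the WT level, and no member was higher. Among all 13359 genes tested, 4.99% were lower and 5.18% were higher at that threshold. After Benjamini-Hochberg adjustment over all genes tested no member had a p below 0.05, against 0.0599% of all genes, and the adjusted limma p of the members ran from 0.382 to 0.969. The same 3 members had no overlap between the genotypes, lower in HrasG12V, as had 10.4% of all genes tested, and no member was higher without overlap, as 8.11% were. The median log2 fold change of the 9 members was -0.32, with 7 below 0 and 2 above, and that of all genes tested was -0.03. Ordered by WT mean per length, the members ran Casq1, Ryr1, Cacna1s, Jph2, Cacng1, Stac3, Cacnb1, Jph1 and Cacng7. In WT mice Casq1, Ryr1 and Cacng7 did not overlap their neighbours, nor did Cacng1 and Stac3, while Cacna1s with Jph2, Jph2 with Cacng1, Stac3 with Cacnb1, and Cacnb1 with Jph1 overlapped. The study had itself listed Cacng7 and Cacna1s among its changed genes from these libraries, so their direction here is not independent evidence.

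Before the single genes, several features of the libraries were set out. HrasG12V mouse 2276 stood apart. Relative to the WT mean, its log2 values followed transcript length, from 0.65 at the 1249 bases of Cacng1 to -0.67 at the 15358 bases of Ryr1, where those of mice 2278 and 2279 lay between -0.16 and -0.01 at the same lengths. The summed FPKM of 6 slow fiber markers was 16.5 in WT mouse 2281, against 1078 and 1112 in the other WT mice and 923 to 3150 in the HrasG12V mice. The summed FPKM of 8 B and T cell markers was 1.29 to 1.62 in WT mice, 2.32 in mouse 2276, and 92.4 and 81.9 in mice 2278 and 2279. Of 12 skeletal myofiber genes, Acta1 and Myh4 were listed at 0 in all 6 libraries, while the summed level of the 12 was 49694 to 62134 FPKM in WT and 36267 to 94652 FPKM in HrasG12V mice. Among the 12, Neb was called lower (log2 fold change -0.59, limma adjusted p = 0.483) and Ttn, at -0.46, was lower without overlap but not called. The 5 heart muscle markers summed to 1.72 to 10.2 FPKM in WT and 10.4 to 24.1 FPKM in HrasG12V mice. Only Myh6 among them did not overlap, at 8.95, 9.04 and 0.794 FPKM in WT and 19.9, 9.65 and 23.1 FPKM in HrasG12V mice. Myh6 was lowest in WT mouse 2281, as were the slow fiber markers. Nppa, Nppb, Myl7 and Tnni3 overlapped, at 1.21 FPKM or less. The 5 endothelial markers summed to 139 to 171 FPKM in WT and 123 to 124 FPKM in HrasG12V mice, with Cdh5 called lower, and the 5 adipocyte markers to 405 to 722 FPKM and 816 to 958 FPKM, with Cfd called higher. Most of the adipocyte sum was Fabp4, at 395 to 678 FPKM in WT and 713 to 769 FPKM in HrasG12V mice. Adipoq, Plin1 and Lep overlapped between the genotypes. The 5 Schwann cell markers summed to 78.8 to 246 FPKM in WT and 117 to 418 FPKM in HrasG12V mice, with a log2 fold change above 0 for all 5 and S100b called higher, and all 5 fibroblast markers were below 0 (median -0.54) with none called. Ckm was at 0 in 5 libraries, Myh1 in 2 and Tnnt3 in 1. Hras itself was 36.8, 36.0 and 51.8 FPKM in WT and 58.8, 28.9 and 16.0 FPKM in HrasG12V mice, a sum over both alleles that does not show the G12V change. The part of these features in the results below was not tested. In bulk tissue, fewer cells of a type and less RNA per cell cannot be told apart.

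The bases upstream of 3 members are shown to place the genes. Cacna1s and Cacng7 had the lower values above, and Casq1 had the highest FPKM of the 9 tested members. Each run covers 180 bases and ends 70 bases before the transcript start, 5′ to 3′ on the gene's own strand, from RefSeq on GRCm38.p6. They lie at chr1:136052561-136052740 on the plus strand, chr1:172219966-172220145 on the minus strand and chr7:3332575-3332754 on the plus strand, and capitals mark the E-box CAGCTG, the core motif bound by MyoD family factors.
Cacna1s: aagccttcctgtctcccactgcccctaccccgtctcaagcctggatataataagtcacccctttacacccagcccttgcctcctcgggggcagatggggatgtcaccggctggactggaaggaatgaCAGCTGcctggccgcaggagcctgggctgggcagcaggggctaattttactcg
Casq1: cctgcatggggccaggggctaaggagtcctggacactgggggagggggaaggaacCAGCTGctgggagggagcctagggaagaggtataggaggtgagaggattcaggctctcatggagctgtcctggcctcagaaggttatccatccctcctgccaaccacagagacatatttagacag
Cacng7: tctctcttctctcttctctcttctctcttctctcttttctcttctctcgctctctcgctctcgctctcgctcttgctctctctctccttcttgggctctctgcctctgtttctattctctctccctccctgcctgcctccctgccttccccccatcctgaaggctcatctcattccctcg
The E-box began at -123 in Cacna1s and at -195 in Casq1, counted from the transcript start. Windows of 300 bases, from 250 before to 50 after the start, were found for 7 of the 10 members, and 4 of the 7 held CAGCTG, namely Cacna1s, Casq1, Jph2 and Atp2a1. The motif, which reads the same on both strands, was in 16.3% of all 32851 windows. MEF2 and CArG box motifs and TATAAA, searched on both strands, were in 0 of the 9 member windows, against 3.19%, 1.63% and 13.6% of all windows. These matches describe letters in a window and not binding.

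Cacna1s is the pore-forming subunit of the skeletal L-type channel and the voltage sensor of the coupling. It lies on chromosome 1 from 136052750 to 136119822, plus strand, in the GENCODE M21 annotation of GRCm38, from which all gene positions here come. Its FPKM was 265, 260 and 323 in WT mice and 206, 148 and 191 in HrasG12V mice. All HrasG12V mice lay below all WT mice, and mouse 2278 was the lowest. Means were 283 ± 34.7 (SD, n = 3) in WT and 182 ± 30.2 (SD, n = 3) in HrasG12V mice. On the log2 scale Cacna1s differed by -0.64 (standard error 0.25, 95% confidence interval -1.24 to -0.05, limma adjusted p = 0.481). Cacna1s was no longer called without mouse 2277, 2280, 2281, 2278 or 2279, at -0.69, -0.70, -0.55, -0.50 and -0.69, and was called without mouse 2276, at -0.74. With each library's trend over transcript length removed the difference was -0.46 and was not called, and neither was that of -0.75 with libraries centred on the myofiber genes. In mouse 2276 Cacna1s lay 0.00 from that trend on the log2 scale, and in mice 2278 and 2279 it lay at -0.86 and -0.55.

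Cacna1s made up 96.4% to 98.1% of the summed FPKM of the Cacna1 family in each of the 6 libraries. The low-voltage T-type subunits Cacna1g and Cacna1h were present at a few FPKM or less. Cacna1g was 1.61, 2.68 and 3.77 FPKM in WT and 0.968, 1.52 and 1.10 FPKM in HrasG12V mice, a log2 fold change of -1.05. Cacna1h was 1.39, 1.30 and 1.22 FPKM in WT and 0.883, 0.770 and 0.868 FPKM in HrasG12V mice, a log2 fold change of -0.58. Both genes were called and their genotypes did not overlap, with a limma adjusted p of 0.439 and 0.481. Cacna1g was not called without mouse 2280, 2281, 2276 or 2279, nor Cacna1h without mouse 2277, 2280 or 2281, with log2 fold changes over the sets of 5 mice of -1.36 to -0.77 for Cacna1g and -0.62 to -0.53 for Cacna1h. With the length trend removed Cacna1h was at -0.37 and was not called, and without mice 2281 and 2276 together Cacna1g was at -0.64 and was not called.

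**Figure D1:**
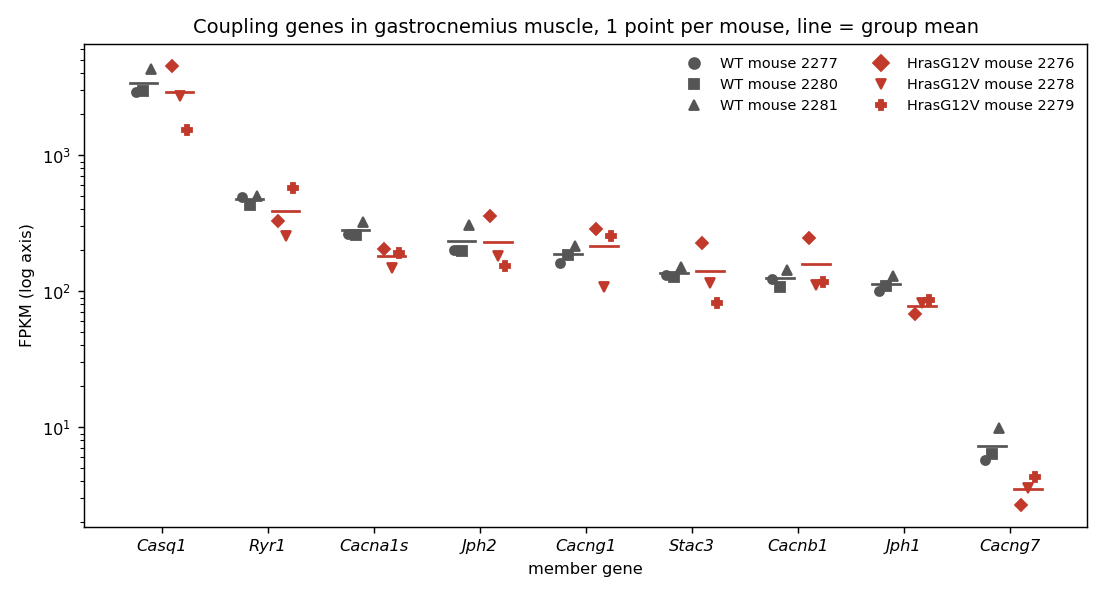
FPKM of each tested member in the 6 mice on a log axis, with 1 point per mouse and a short line at the mean of each genotype. Cacna1s, Cacng7 and Jph1 show HrasG12V points below all WT points, and the other tested members overlap.

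Cacng7 encodes a gamma subunit of the family that also holds the skeletal Cacng1 and is best known in the nervous system as a regulator of AMPA receptors. The gene is on chromosome 7 from 3332955 to 3368221, plus strand. It was the least abundant tested member, at 5.78, 6.33 and 9.82 FPKM in WT and 2.69, 3.60 and 4.32 FPKM in HrasG12V mice. The genotypes did not overlap, and the 3 HrasG12V mice stood at 36.8%, 49.2% and 59.2% of the WT mean. On the log2 scale Cacng7 differed by -1.01 (standard error 0.27, 95% confidence interval -1.65 to -0.38, limma adjusted p = 0.382). Cacng7 was the only member called in each of the 6 sets of 5 mice, with log2 fold changes of -1.17 to -0.78. Without mice 2281 and 2276 together it was -0.60 and was called. It was not called when libraries were set to the same total FPKM (-1.02) or were centred on the myofiber genes (-1.12).

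Cacng1, the gamma subunit of the skeletal channel, lies on chromosome 11 from 107703218 to 107716522, minus strand. Its FPKM was 162, 185 and 217 in WT and 288, 107 and 256 in HrasG12V mice. Mouse 2278 was the lowest of the 6 and mice 2276 and 2279 were the highest, so the genotypes overlapped. Cacng1 had a log2 fold change of 0.09 (95% confidence interval -0.90 to 1.09, limma adjusted p = 0.965), whose sign turned in several settings, to -0.17 without mouse 2276. Cacng1 held 67.3% to 80.6% of the summed FPKM of the gamma family, and Cacng7 held 2.54% to 3.23% in WT and 0.699% to 2.26% in HrasG12V mice.

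Cacnb1, the intracellular beta subunit that brings the channel to the membrane, lies on chromosome 11 from 98001508 to 98023034, minus strand. Its FPKM was 123, 107 and 144 in WT and 249, 112 and 116 in HrasG12V mice. Only mouse 2276 lay above the WT range. The difference was 0.25 on the log2 scale (95% confidence interval -0.61 to 1.12, limma adjusted p = 0.859) and was -0.12 without mouse 2276. Cacnb3, a beta subunit of other tissues that was also on the study's list of changed genes, was 1.98, 2.70 and 2.52 FPKM in WT and 4.47, 5.14 and 5.85 FPKM in HrasG12V mice. All HrasG12V mice lay above all WT mice. The log2 fold change of Cacnb3 was 1.07 (standard error 0.18, limma adjusted p = 0.288), and Cacnb1 still held 94.6% to 98.1% of the summed FPKM of the beta family.

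Stac3, an adaptor needed for channel delivery and coupling, lies on chromosome 10 from 127501686 to 127508823, plus strand. Its FPKM was 132, 127 and 150 in WT and 227, 114 and 82.4 in HrasG12V mice. The HrasG12V mice lay on both sides of the WT range. Stac3 differed by -0.08 on the log2 scale (95% confidence interval -1.01 to 0.85, limma adjusted p = 0.969). Without mouse 2276 the difference was -0.49 and was called, in a comparison where 29.8% of all genes tested were called.

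**Figure D2:**
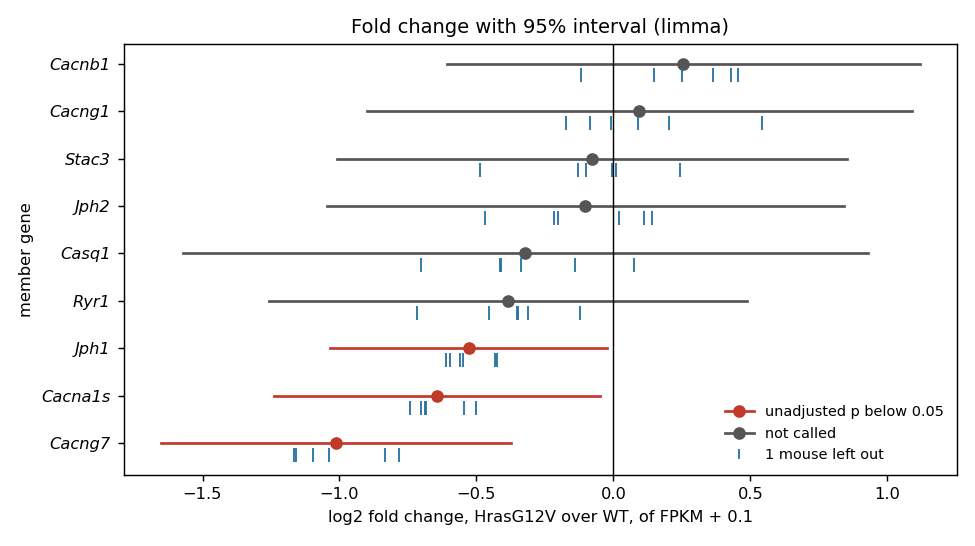
Log2 fold change, HrasG12V minus WT on the log2(FPKM + 0.1) scale, of the 9 tested members, with 1 point per gene and bars for the 95% confidence interval of the limma fit. The intervals of Cacng7, Cacna1s and Jph1 lie below 0 and those of the other 6 members cross it.

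Ryr1, the calcium release channel of the sarcoplasmic reticulum, lies on chromosome 7 from 29003344 to 29125179, minus strand, and was the second of the 9 tested members by WT mean. Its FPKM was 497, 432 and 500 in WT and 330, 254 and 578 in HrasG12V mice. Mice 2276 and 2278 were below the WT range and mouse 2279 was above it. The coefficient of variation was 8.09% in WT and 43.8% in HrasG12V mice. Ryr1 differed by -0.38 on the log2 scale (standard error 0.36, 95% confidence interval -1.26 to 0.49, limma adjusted p = 0.768). The difference was -0.72 without mouse 2279 and -0.12 without mouse 2278, and was called in neither case. With the length trend removed it was also -0.12 and not called. Ryr1 made up at least 99.8% of the summed FPKM of the ryanodine receptors in every library. Ryr3, the isoform of immature muscle and brain, was at 0.204, 0.159 and 0.166 FPKM in WT and 0.291, 0.311 and 0.292 FPKM in HrasG12V mice, below the minimum mean of 0.5 FPKM, and was not tested.

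Among 18 tested of 20 release channel genes and partners, Homer1 was the only one called. Homer1 is a scaffold that binds ryanodine and other calcium channels, and its FPKM was 26.5, 29.4 and 31.6 in WT and 14.4, 18.0 and 15.5 in HrasG12V mice. The genotypes did not overlap. Homer1 differed by -0.87 ± 0.17 (SE) on the log2 scale (limma adjusted p = 0.296), and it was called in all 6 sets of 5 mice, from -0.95 to -0.80. It was not called with libraries centred on the myofiber genes, at -0.98.

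Jph1, the junctophilin most characteristic of skeletal muscle, lies on chromosome 1 from 16964560 to 17097889, minus strand, and an antisense gene of the annotation overlaps 127072 bases of it. Whether strand was used in counting is not given in the sources used here. Its FPKM was 101, 110 and 130 in WT and 68.4, 81.5 and 85.7 in HrasG12V mice. All HrasG12V mice lay below all WT mice, at 60.3% to 75.5% of the WT mean. Jph1 differed by -0.53 on the log2 scale (standard error 0.21, 95% confidence interval -1.03 to -0.02, limma adjusted p = 0.483). It was not called without WT mouse 2277, 2280 or 2281, at -0.61, -0.55 and -0.43, and was called without each HrasG12V mouse in turn. With the length trend removed it was -0.41 and was called, but it was not called with quantile normalization (-0.49), array weights (-0.41), the same total FPKM (-0.54) or myofiber centring (-0.64).

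Jph2, the junctophilin shared with the heart, lies on chromosome 2 from 163336242 to 163397993, minus strand. Its FPKM was 200, 197 and 309 in WT and 357, 180 and 153 in HrasG12V mice. Mouse 2276 was the highest of the 6 and mouse 2279 the lowest, and the log2 fold change was -0.10 (95% confidence interval -1.05 to 0.84, limma adjusted p = 0.961). Of the other junction and tubule genes, Mtm1, the lipid phosphatase myotubularin, was 9.75, 8.72 and 8.92 FPKM in WT and 5.14, 7.13 and 7.78 FPKM in HrasG12V mice. Mtm1 was called at a log2 fold change of -0.46 (limma adjusted p = 0.488), but not without mouse 2277, 2280, 2281 or 2278, at -0.42, -0.50, -0.48 and -0.52. It was -0.29 without mouse 2276 and was called there.

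Casq1, the calcium buffer of the fast fiber reticulum, lies on chromosome 1 from 172209894 to 172219868, minus strand, and had the highest WT mean of the 9 tested members. Its FPKM was 2946, 2970 and 4299 in WT and 4542, 2745 and 1545 in HrasG12V mice. No HrasG12V mouse lay within the WT range, with mouse 2276 above it and mice 2278 and 2279 below it. Casq1 differed by -0.32 on the log2 scale (standard error 0.52, 95% confidence interval -1.57 to 0.93, limma adjusted p = 0.883). Casq2, the slow fiber and cardiac form, was 83.9, 92.0 and 41.8 FPKM in WT and 138, 60.4 and 44.3 FPKM in HrasG12V mice, lowest in WT mouse 2281, which had the low slow fiber markers. HrasG12V mouse 2279 was close to it in Casq2, while its slow fiber markers summed to 2045 FPKM. A link of Casq2 to the slow fiber markers was not tested.

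Atp2a1, the SERCA pump of fast fibers, lies on chromosome 7 from 126445858 to 126463108, minus strand, and was listed at 0 in all 6 libraries. Other genes that fast muscle uses were also at 0, so the listing gives no level for Atp2a1, and no value was tested. The slow fiber pump Atp2a2 was 162, 120 and 29.1 FPKM in WT and 147, 104 and 246 FPKM in HrasG12V mice, a log2 fold change of 0.91 (limma adjusted p = 0.704). Without WT mouse 2281, the mouse with the low slow fiber markers, the log2 fold change of Atp2a2 was 0.16. Sln, sarcolipin, a small inhibitor of the SERCA pumps, was 22.9, 12.9 and 7.20 FPKM in WT and 47.7, 23.8 and 98.6 FPKM in HrasG12V mice. Every HrasG12V mouse was above every WT mouse, although mouse 2278 exceeded the highest WT mouse only slightly. The log2 fold change of Sln was 1.90 (standard error 0.61, limma adjusted p = 0.435), and it was not called without mouse 2280, 2281, 2276 or 2279, at 1.90, 1.48, 1.90 and 1.38. Atp2b3, a plasma membrane calcium pump, was 5.32, 4.87 and 5.64 FPKM in WT and 3.77, 3.34 and 2.49 FPKM in HrasG12V mice. Slc8a1, a sodium-calcium exchanger, was 1.67, 2.03 and 3.79 FPKM in WT and 0.693, 1.40 and 1.49 FPKM in HrasG12V mice. Both were lower with no overlap, with log2 fold changes of -0.72 and -0.98 (limma adjusted p = 0.382 and 0.488). Atp2b3 was called in all 6 sets of 5 mice and Slc8a1 only without mouse 2277. Slc8a1 was at -0.65 without mouse 2281, -0.66 without mouse 2276 and -0.33 without both, and at -1.08, -1.12 and -1.17 without mice 2280, 2278 and 2279.

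**Figure D3:**
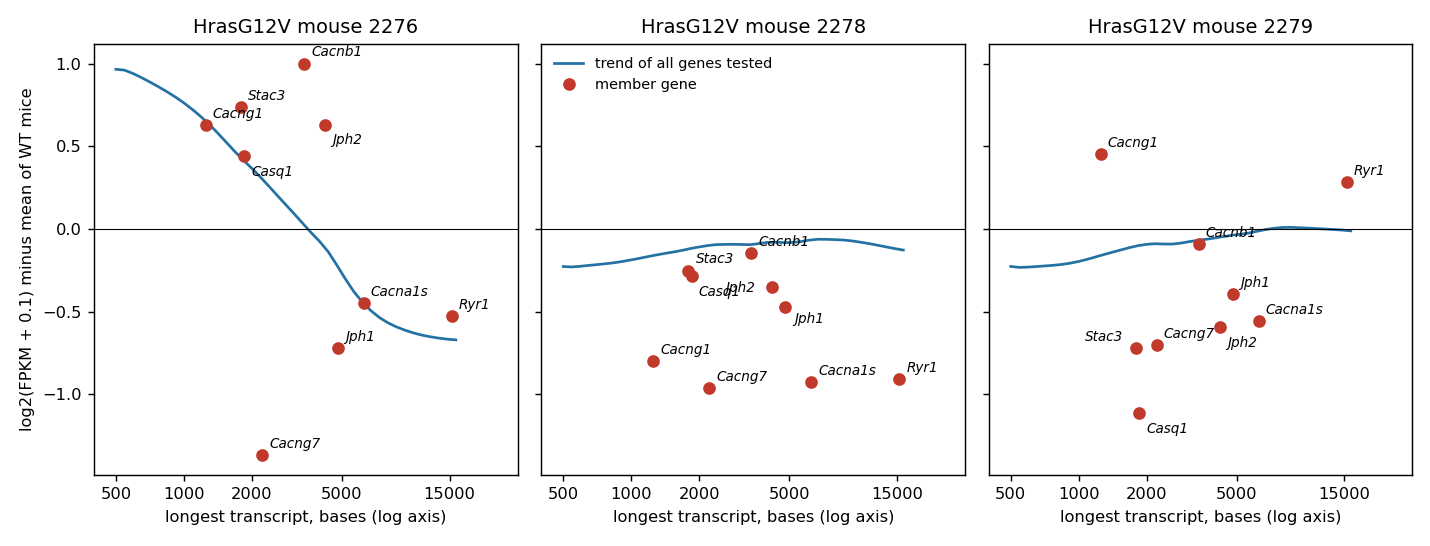
Log2 difference from the WT mean of each tested member in the 3 HrasG12V mice against the length of its longest transcript in bases (log axis), with a line for the trend of all genes tested. In mouse 2276 the line falls from above 0.5 at the length of Cacng1 to -0.67 at that of Ryr1, and in mice 2278 and 2279 it stays near 0.

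Pairs of genes were also compared within a library, as ratios of FPKM + 0.1, where the scaling between libraries hardly enters for genes far above 0.1 FPKM. Of 7 ratios, 3 did not overlap between the genotypes. Among all single genes tested, 10.4% were lower and 8.11% were higher without overlap, and no such share was computed for ratios. The ratios of Cacnb1 and Cacng1 below share the denominator Cacna1s, itself lower without overlap, so they are not results separate from it. The exact permutation test of 3 against 3 mice cannot give a two-sided p below 0.1, so no ratio could pass 0.05. Cacnb1 stood at 0.465, 0.413 and 0.448 of Cacna1s in WT mice and at 1.21, 0.758 and 0.610 of it in HrasG12V mice, a difference of 0.90 on the log2 scale (exact permutation p = 0.1, adjusted over 7 ratios 0.233). Cacng1 stood at 0.609, 0.712 and 0.672 of Cacna1s in WT and at 1.40, 0.724 and 1.34 of it in HrasG12V mice, a difference of 0.74 on the log2 scale (exact permutation p = 0.1, adjusted 0.233). WT mice were thus tightly grouped in both ratios and HrasG12V mice were spread above them, with mouse 2278 close to the WT range for Cacng1. Transcripts of Cacng1 and Cacnb1 are shorter than that of Cacna1s, and mouse 2276 had the highest value of both ratios. The third ratio, Ryr1 over Ryr3, was lower by 0.91 on the log2 scale in HrasG12V mice, with Ryr3 under 1 FPKM throughout. This ratio depended on the pseudocount, at -0.53 with 1 (exact permutation p = 0.4) and -1.12 with 0.01. The ratios of Ryr1 and Stac3 to Cacna1s, Jph2 to Jph1 and Casq1 to Casq2 overlapped (exact permutation p = 0.4 to 0.8).

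**Figure D4:**
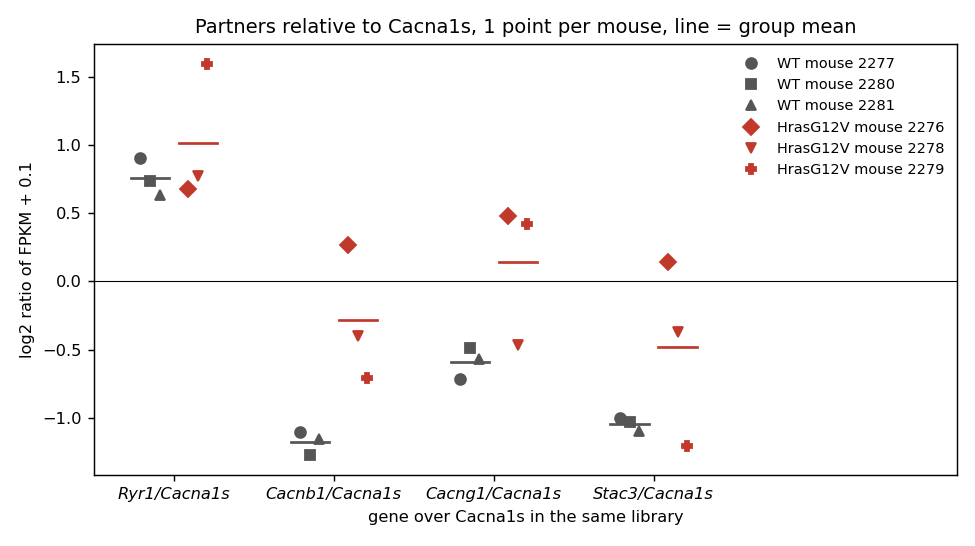
Ratio of FPKM of Ryr1, Cacnb1, Cacng1 and Stac3 to Cacna1s in each mouse on a log2 axis, with 1 point per mouse and a line at each genotype's mean. The HrasG12V points of Cacnb1 and Cacng1 lie above all WT points, and those of Ryr1 and Stac3 overlap.

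Across the 9 pathway lists of 109 genes, 82 genes were tested, 10 were lower and 2 were higher at the unadjusted threshold, 14.6% in all against 10.2% of all genes tested. With the members left out, 7 of 73 were lower and 2 higher, or 12.3%. No pathway gene passed the adjusted threshold in limma, and the smallest adjusted p was 0.288. Without mouse 2276, with array weights and without mice 2281 and 2276 together, 7, 4 and 2 of the 82 pathway genes passed it. In the same settings 1291, 572 and 431 of all 13359 genes tested passed it. At the unadjusted threshold 29.8%, 22.8% and 22.2% of all genes were called there. With all mice, the 2 higher genes were Cacnb3, among the other channel subunits, and Sln, among the pumps and regulators. Of all genes tested, 4.99% were lower at the unadjusted threshold. By list, 1 of 5 L-type channel genes, 3 of 8 other channel subunits and 1 of 18 release channel genes were lower. So were 2 of 9 junction genes, 2 of 10 pumps and regulators, and 1 of 14 calcium-dependent kinase and calcineurin genes. The last was Ppp3r1, the regulatory subunit of calcineurin, at 95.7, 96.4 and 102 FPKM in WT and 64.4, 71.2 and 76.7 FPKM in HrasG12V mice (log2 fold change -0.47, limma adjusted p = 0.481). Ppp3r1 was not called without WT mouse 2277, 2280 or 2281, at -0.49, -0.49 and -0.44. No gene was called among 5 calcium buffers, 6 store-operated entry genes or 7 mitochondrial uptake genes. The count of 12 was 5 to 27 when single mice were left out, lowest without WT mouse 2280 or 2281 and highest without mouse 2276, where 29.8% of all genes were called.

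**Figure D5:**
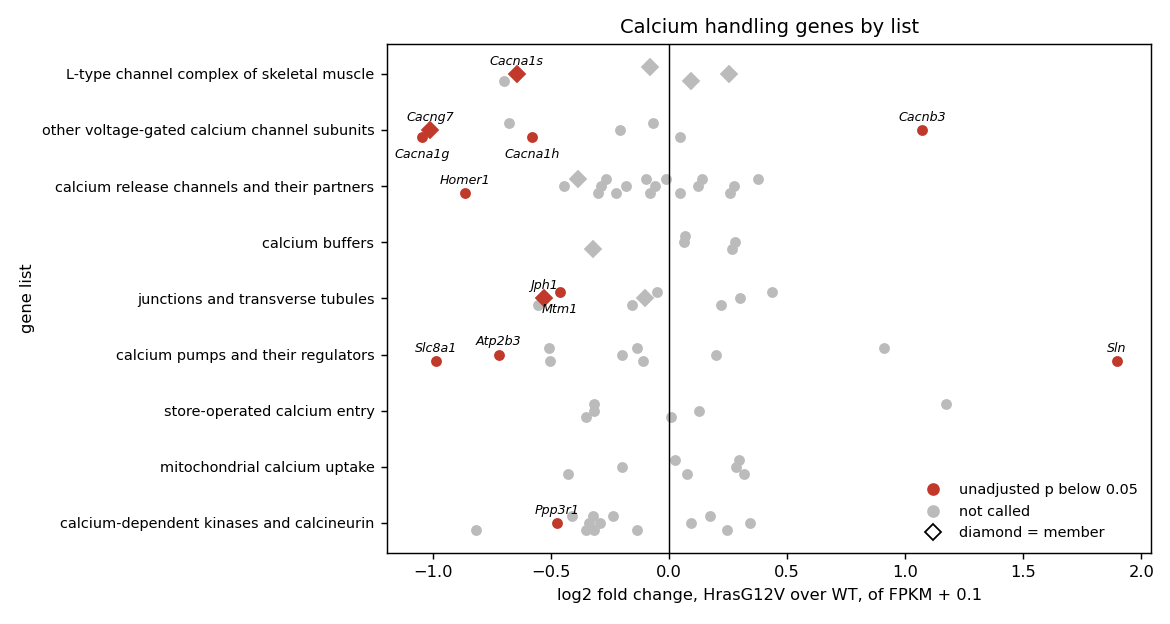
Log2 fold change, HrasG12V minus WT, of every tested gene of the 9 pathway lists, with 1 point per gene and called genes named. Most lists spread on both sides of 0, and Sln and Cacnb3 are the named genes above it.

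Over the 6 mice, the genes whose log2 values ran most like Cacna1s, among 5282 with a mean of at least 10 FPKM, were Prkar2a (Pearson r = 0.999), C2cd2 (r = 0.994) and Tinagl1 (r = 0.991). Those most like Ryr1 were E430025E21Rik (r = 0.986), Ptges3 (r = 0.985) and Ulk1 (r = 0.984). These are descriptions over 6 points that share genotype and library, and the leading genes were picked from all of those 5282.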

How the data were processed

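Gastrocnemius RNAseq values of 3 HrasG12V and 3 WT mice were used. Per the labels and methods, the authors made stranded mRNA libraries, mapped single-end reads with TopHat and deposited FPKM per gene from Cufflinks and Cuffnorm, which scales libraries to each other. The submitters' processing notes name GRCm38 (mm10). For tool versions, annotation and strand setting, the sources used here give nothing. Low values were examined for steps of whole reads. The fullest interval of log2 ratios between a pair of libraries held 1.16% to 8.53% of values, and 6.62% to 8.53% between WT libraries. Whether these are steps of whole reads was not tested. The values used are FPKM, and no count model was used. The methods state a nominal read depth per sample, but the reads behind each value are not known here. FPKM totals were 413020 to 814013.

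Genes with a mean of at least 0.5 FPKM were kept (13359), and log2(FPKM + 0.1) was compared with limma 3.58.1 in R 4.3.3 (trend, Benjamini-Hochberg adjustment, no covariates). Fold changes on this scale understate changes of low genes. Ratios had exact permutation tests, two-sided. One planned ratio, Atp2a1 to Atp2a2, could not be computed. Lengths and positions came from GENCODE M21. The length trend was a lowess curve with a span of 0.3. Strit1 was not matched, and Mrln and Mcub were matched by older symbols. The fit was tested on simulated data.

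The members and lists were chosen with earlier results of these data known. All members, each pathway gene with an unadjusted p below 0.05, the denominators of ratios, and the 3 genes most like Cacna1s and Ryr1 were named. The labels name separate mice but no litter, batch or sex. Alternatives were other pseudocounts, filters, normalizations, spread estimates, library weights, the length trend and leaving out mice. Leaving out mice 2281 and 2276 together was added after the data were seen.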

Additional observations from a re-analysis of the deposited data

How the results depend on the processing

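No analysis paired by litter was possible because the labels do not say which mice shared a litter. Of the 9 members, 3 were lower at the unadjusted limma p, and this count was 1 with libraries set to the same total FPKM, 0 with libraries centred on the myofiber genes, and 1 to 4 when single mice were left out. The share of all genes called moved as well, from 10.2% to 5.33% at the same total, 3.77% with myofiber centring and 4.54% to 29.8% without single mice. The count of pathway genes called was 12, and was 6 at the same total, 1 with myofiber centring, 5 to 27 without single mice and 22 without mice 2281 and 2276 together, where 22.2% of all genes were called. With array weights 18 pathway genes (22.0%) and 22.8% of all genes were called. No member passed the adjusted p in any alternative. Myofiber centring moved the median log2 fold change of all genes from -0.03 to -0.14, and the reference holds genes listed at 0 in some libraries.

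Signs turned for 5 members and for Casq2, none of them called with all mice. Cacnb1 was -0.030 with array weights, -0.12 to 0.46 without single mice (lowest without mouse 2276) and -0.0098 without mice 2281 and 2276. Cacng1 was -0.016 with myofiber centring, -0.16 with array weights, -0.018 with the length trend removed, -0.17 to 0.54 without single mice and -0.063 without mice 2281 and 2276. Without single mice Jph2 ran from -0.47 to 0.14, Stac3 from -0.49 to 0.24 and Casq1 from -0.70 to 0.076. Casq2 was -0.047 with myofiber centring, -0.43 with array weights, -0.41 to 0.41 without single mice and -0.76 without mice 2281 and 2276, where it was called lower. Without single mice the log2 ratio difference ran from -0.031 to 0.43 for Ryr1 to Cacna1s, -0.037 to 0.74 for Jph2 to Jph1 and -0.68 to 0.15 for Casq1 to Casq2. The cause was not tested. With 3 mice a group and no read counts per gene used here, the precision of single values is known only from the spread between mice.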
